A study of Mus musculus with 12 samples.

Results

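The BCL2 family sets whether the outer membrane of the mitochondrion stays closed. The 10 members described here are Bcl2, Bcl2l1, Bcl2l10, Mcl1, Bax, Bak1, Bok, Bcl2l11, Bid and Bbc3. They were chosen by symbol in a table of 56691 mouse genes, with earlier results of these data known. Each symbol belonged to a single gene identifier, and all 10 had counts in at least 1 oocyte library. Other genes of the same death pathway, 40 in 4 lists, were followed beside them.

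The survival members BCL2, BCL-XL (from Bcl2l1) and MCL1 hold death signals in check by binding the other members. BCL2L10 is grouped with them here, and its function was not tested. The effectors BAX, BAK (from Bak1) and BOK form pores in the outer membrane, through which cytochrome c leaves to start the caspases. The BH3-only proteins BIM (from Bcl2l11), BID and PUMA (from Bbc3) carry a short BH3 stretch with which they occupy the groove of survival members or engage effectors. In the ovary this balance is known for setting how many germ cells survive, and Bcl2l10 is known as a member expressed strongly in oocytes.

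The study asked how loss of ALKBH5, an enzyme that removes the m6A mark from RNA, affects maternal RNA during oocyte maturation. Messenger RNA was counted in 12 libraries, 2 for each combination of WT or Alkbh5-/- with the germinal vesicle (GV), germinal vesicle breakdown (GVBD) or metaphase II (MII) stage. All donors were C57BL/6 females about 3 weeks old that had received PMSG, a hormone that makes follicles grow, and cumulus cells were stripped from the oocytes before culture in M16 medium. Each library came from a small pool of oocytes with synthetic ERCC RNAs added to the lysate. The Alkbh5-/- mice were total knockouts made with CRISPR-Cas9 by removing exon 1, so the follicle cells around their oocytes lacked the gene too. Most Alkbh5-/- oocytes do not complete GVBD or release a polar body, so a pool labelled GVBD or MII from these mice may hold oocytes arrested earlier. The labels do not say whether replicates came from separate animals, so p-values measure the spread between these pools.

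Libraries held 28335815 to 39409401 counts on genes and 221927 to 838409 on ERCC sequences. Levels are given as spike-in scaled counts, that is, counts multiplied by the mean ERCC total over that library's ERCC total, unless CPM is named, which scales each library to the same total of counts on genes. In bulk pools scaled this way, fewer oocytes in a tube and less RNA per oocyte cannot be told apart. Alkbh5 itself had 150 to 301 CPM in the 6 WT libraries and 1.82 to 5.05 CPM in the 6 Alkbh5-/- libraries. Oocyte markers such as Zp3, Gdf9 and Ooep were abundant in every library, the 9 together at 19799 to 27923 CPM. The 10 granulosa and cumulus markers summed to 24.5 to 74.5 CPM, most of it Cyp19a1. Fshr (17 to 221 counts), Inhba (6 to 130) and Cyp11a1 (3 to 29) also had counts in every library. Amh was at 0 counts in 11 libraries, Foxl2 in 10, Tnfaip6 in 9, Inha in 4, Ptgs2 in 2 and Has2 in 1. RNA of blood cells divided the libraries. The 4 erythroid genes Hbb-bs, Hbb-bt, Hba-a1 and Alas2 summed to 38 to 1216 counts in 6 libraries (WT GV replicate 1, both WT MII, both Alkbh5-/- GVBD and Alkbh5-/- MII replicate 2) and to 25032 to 144123 in the other 6. The 5 leukocyte genes Ptprc, Cd74, Lyz2, Cd3e and Laptm5 summed to 7.81 to 24.7 CPM in the first set and 16.7 to 69.1 CPM in the second.

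The BH3 core is the feature by which members of all 3 roles can recognise each other, and its coding sequence is shown to set the members side by side. Each line gives the 18 coding bases from the leucine to the aspartate of the core in a GENCODE M21 transcript, with its place on GRCm38, read 5′ to 3′ on the gene's strand. Capitals mark the codon for the leucine and the codons for the glycine and aspartate, or in Bbc3 an alanine and aspartate.
Bcl2, survival, chr1:106712584-106712601, minus strand: CTCcgccgggctGGGGAT
Bcl2l1, survival, chr2:152829706-152829723, minus strand: CTGagagaggcaGGCGAT
Mcl1, survival, chr3:95659436-95659453, plus strand: CTGcggcgcgtgGGCGAC
Bax, effector, chr7:45466006-45466023, minus strand: CTCcggcgaattGGAGAT
Bak1, effector, chr17:27022540-27022557, minus strand: CTTgctctcatcGGAGAT
Bok, effector, chr1:93686657-93689161, plus strand, across an intron: CTGctgcgcttgGGAGAT
Bcl2l11, BH3-only, chr2:128147150-128147167, plus strand: CTGcggcggatcGGAGAC
Bid, BH3-only, chr6:120897298-120897315, minus strand: CTCgcccaaataGGCGAT
Bbc3, BH3-only, chr7:16313773-16313790, plus strand: CTGcggcggatgGCGGAC

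Each of these 9 coding sequences held the pattern at a single place, within coding exons. The glycine form of the pattern alone occurs in 13.3% of 21660 mouse coding sequences, so it is not particular to the family. Bcl2l10 (chr9:75347758-75351632, plus strand) held neither form, which says only that these residues in this spacing are not in its coding sequence.

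Bcl2l10 made up most of the family's RNA in every library. It carried 93.2 to 99.0% of the counts of the 10 members, with the lowest share in Alkbh5-/- GVBD replicate 1 and the highest in WT MII replicate 2. Per kilobase of exon, its mean spike-in scaled level in the 6 groups ran from 27820 to 42654, and its rank among 31485 genes with counts went from 146 in WT GV to 37 in WT MII. The next member in any group, Bax or Bcl2l1, had a mean of 52.1 to 280 spike-in scaled counts per kilobase.

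**Figure D1:**
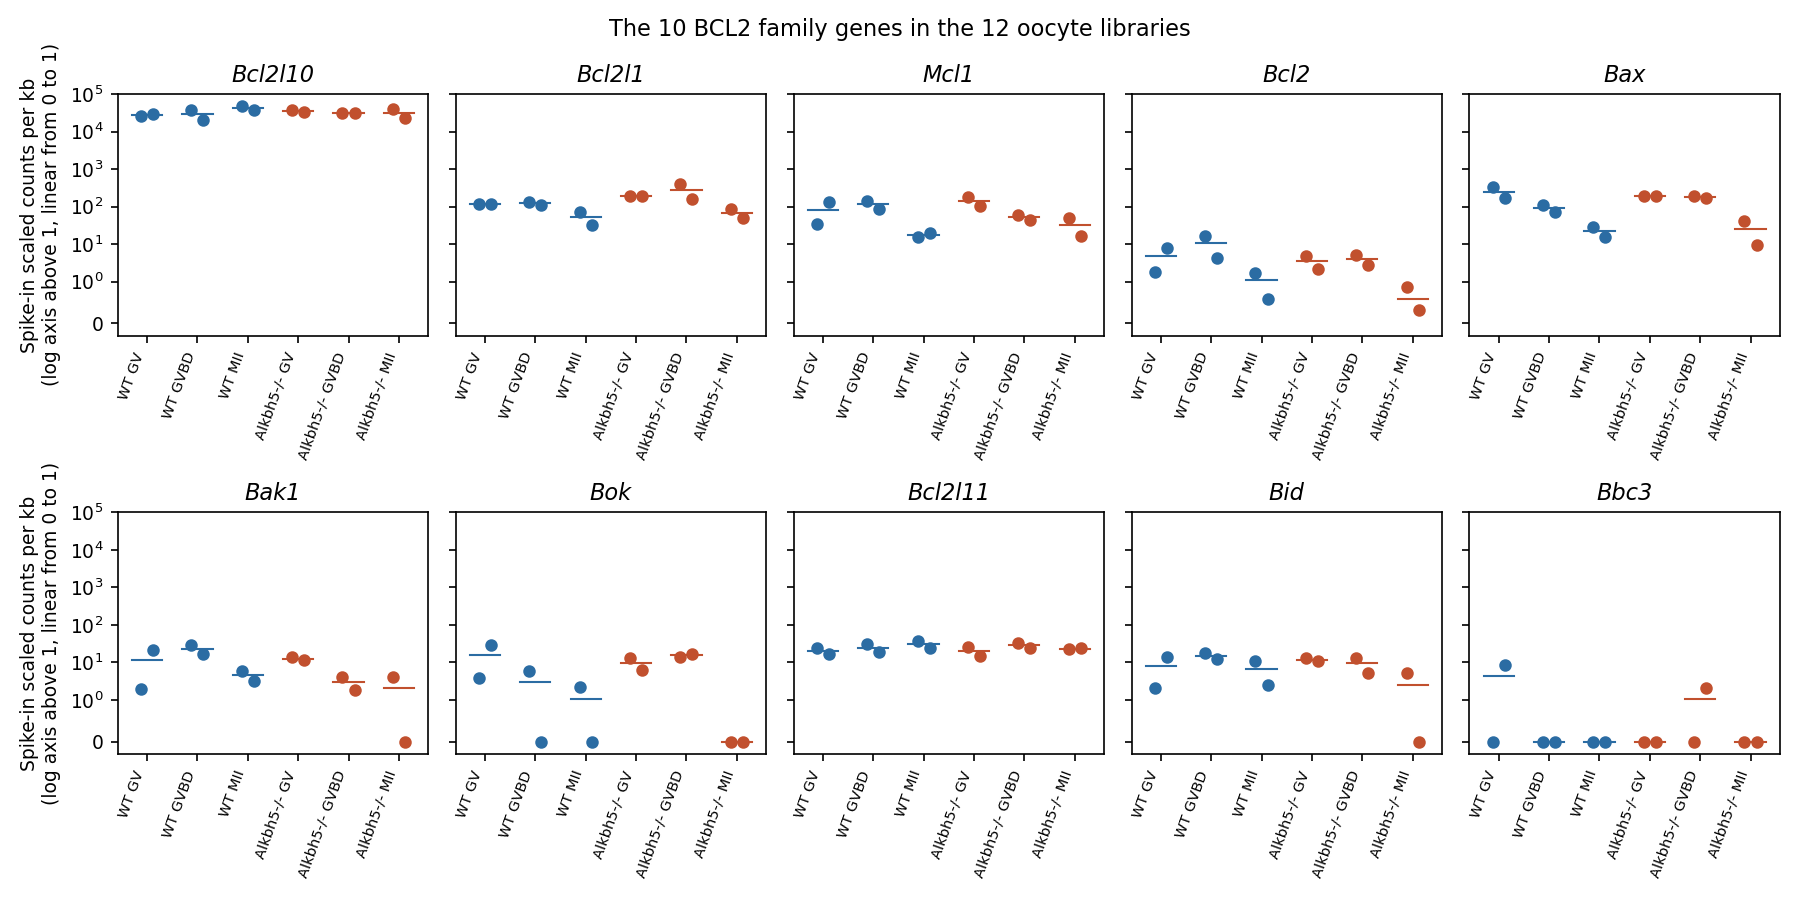
Spike-in scaled counts per kilobase of exon (vertical axis, logarithmic above 1 and linear from 0 to 1) of the 10 members in WT (blue) and Alkbh5-/- (red) oocytes at 3 stages; each point is a library and each line the mean of 2. Bcl2l10 lies at 20502 or above in every library, while Bcl2, Bak1, Bok, Bid and Bbc3 lie at 28.4 or below.

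Below Bcl2l10 the order of the members differed between stages. On the per-kilobase spike-in scale, Bax stood second in WT GV oocytes with a mean of 248 ± 117 (SD, n = 2), above Bcl2l1 at 120 ± 0.921, and the libraries of these neighbours did not overlap. Bcl2l1 was second at WT MII with 52.1 ± 27.0, and Bax there had 22.4 ± 9.15, below Bcl2l11 at 31.4 ± 9.46. At WT MII the libraries of Bcl2l11 overlapped those of Bcl2l1 and those of Bax. Those of Bcl2l1 (33.0 and 71.1) and Bax (15.9 and 28.8) did not overlap. In Alkbh5-/- GV oocytes Bax and Bcl2l1 had nearly the same mean, 194 ± 0.433 and 193 ± 4.72, and overlapped. Bcl2, Bok, Bid and Bbc3 each had a mean of at most 16.1 per kilobase in every group.

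Among the survival members, Bcl2l10 went from 32523 and 35358 spike-in scaled counts in the WT GV libraries to 45067 and 25012 in the GVBD pair and 59456 and 44620 at MII. In Alkbh5-/- oocytes it had 45764 and 40760 at GV, 37292 and 37951 in the GVBD pair, and 47308 and 28280 at MII. Both WT MII libraries lay above both WT GV libraries, whereas the Alkbh5-/- MII libraries lay on either side of the Alkbh5-/- GV pair. The log2 fold change of MII against GV was 0.62 ± 0.43 (SE) in WT (edgeR quasi-likelihood test with Benjamini-Hochberg adjustment, adjusted p = 0.301) and -0.19 ± 0.48 in Alkbh5-/- (adjusted p = 0.835). The difference between the genotypes in this change, tested as an interaction, was -0.81 ± 0.57 (adjusted p = 1).

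The scale decides how the Bcl2l10 change reads, since the median of all tested genes was -1.06 in WT and -1.17 in Alkbh5-/- between GV and MII on the spike-in scale. As a share of the library, Bcl2l10 had 767 and 885 CPM at WT GV and 2008 and 2349 CPM at WT MII, a 2.64-fold ratio of the means. The Alkbh5-/- libraries had 887 and 907 CPM at GV and 1333 and 1280 CPM at MII, a 1.46-fold ratio. On this scale each MII pair lay above its GV pair, and both WT MII libraries lay above both Alkbh5-/- MII libraries. With TMM scaling, which centres on the bulk of genes, the WT rise was 1.57 ± 0.19 and passed the test (adjusted p = 0.00427), the Alkbh5-/- value was 0.91 ± 0.29 (adjusted p = 0.0999), and the difference between them was -0.76 ± 0.32 (adjusted p = 0.452). Relative to the median gene on the spike-in scale, Bcl2l10 stood 1.68 higher in WT and 0.98 higher in Alkbh5-/-.

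**Figure D2:**
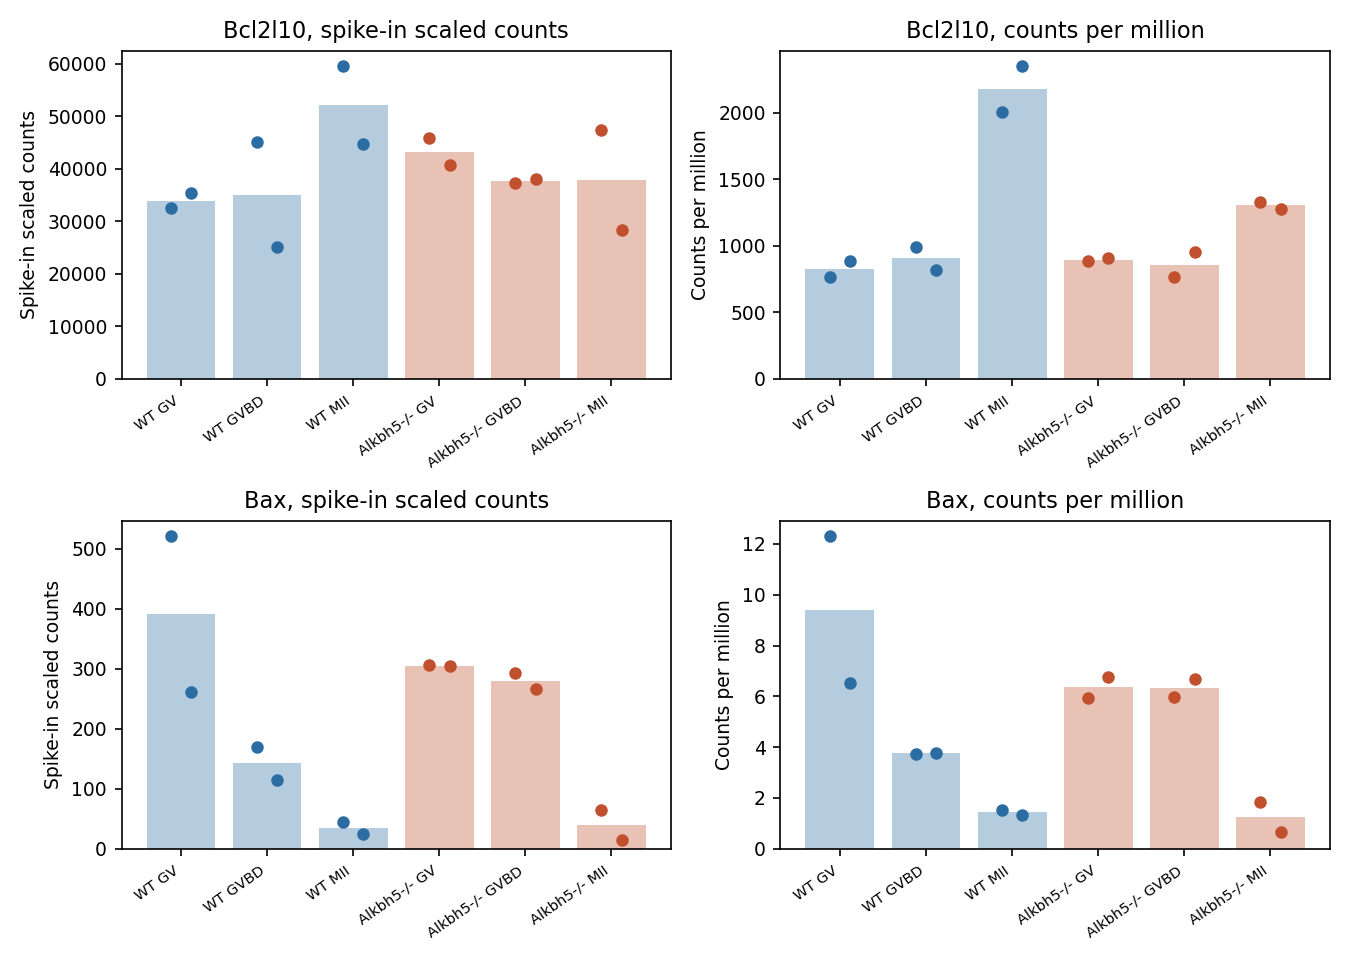
Bcl2l10 (top) and Bax (bottom) as spike-in scaled counts (left) and as CPM (right) in WT (blue) and Alkbh5-/- (red) oocytes; bars are means of 2 libraries, points are libraries. Bcl2l10 at WT MII stands at 2008 and 2349 CPM against 767 and 885 at WT GV, while on the spike-in scale the groups lie between 25012 and 59456; Bax is low at MII in both genotypes on both scales.

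The 5 genes whose pattern over the 12 libraries was most like that of Bcl2l10, by Pearson correlation of TMM-scaled log2 counts among 10838 genes, were Cox8a (r = 0.983), Dazl (r = 0.983), Cdc40 (r = 0.981), Brdt (r = 0.975) and Phtf2 (r = 0.972). Cox8a encodes a subunit of the respiratory chain and Dazl a germ cell RNA-binding protein. These libraries share stage and genotype groups, so the correlations describe a common profile over the same 12 points.

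Mcl1, a survival member with a short-lived protein, had 114 and 443 spike-in scaled counts at WT GV, 477 and 303 in the GVBD pair, and 54.2 and 66.5 at MII. In Alkbh5-/- oocytes it had 601 and 353 at GV, 199 and 151 in the GVBD pair, and 165 and 56.6 at MII. The MII libraries were the lowest of each genotype in mean, and no MII library overlapped the GV libraries of its genotype. Mcl1 fell 4.59-fold from GV to MII in WT (log2 fold change -2.20 ± 0.64, adjusted p = 0.00322), and its value in Alkbh5-/- was -2.11 ± 0.84 (adjusted p = 0.16).

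The Mcl1 level moved with the red cell RNA, but the sets with few and many erythroid counts also differ in stage. Both WT MII libraries and Alkbh5-/- MII replicate 2 are in the low set, and only Alkbh5-/- MII replicate 1 is in the high set. Stage and erythroid counts therefore cannot be fully told apart over the 12 libraries. The 6 libraries with few erythroid counts held 68 to 138 Mcl1 counts and the other 6 held 165 to 356, so the sets did not overlap. In CPM, Mcl1 was the only one of 9 tested members whose values did not overlap between those library sets, against 0.991% of 22004 genes. Without WT GV replicate 2, which leaves 3 WT libraries all low in erythroid counts, the WT change was -0.91 ± 1.0 (adjusted p = 0.71). Without Alkbh5-/- MII replicate 2, which leaves 3 libraries all high in them, the Alkbh5-/- change was -1.53 ± 0.53 (adjusted p = 0.0677). Under TMM scaling the WT value was -1.12 ± 0.67 (adjusted p = 0.267). The part of blood cells in the Mcl1 counts was not tested.

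**Figure D3:**
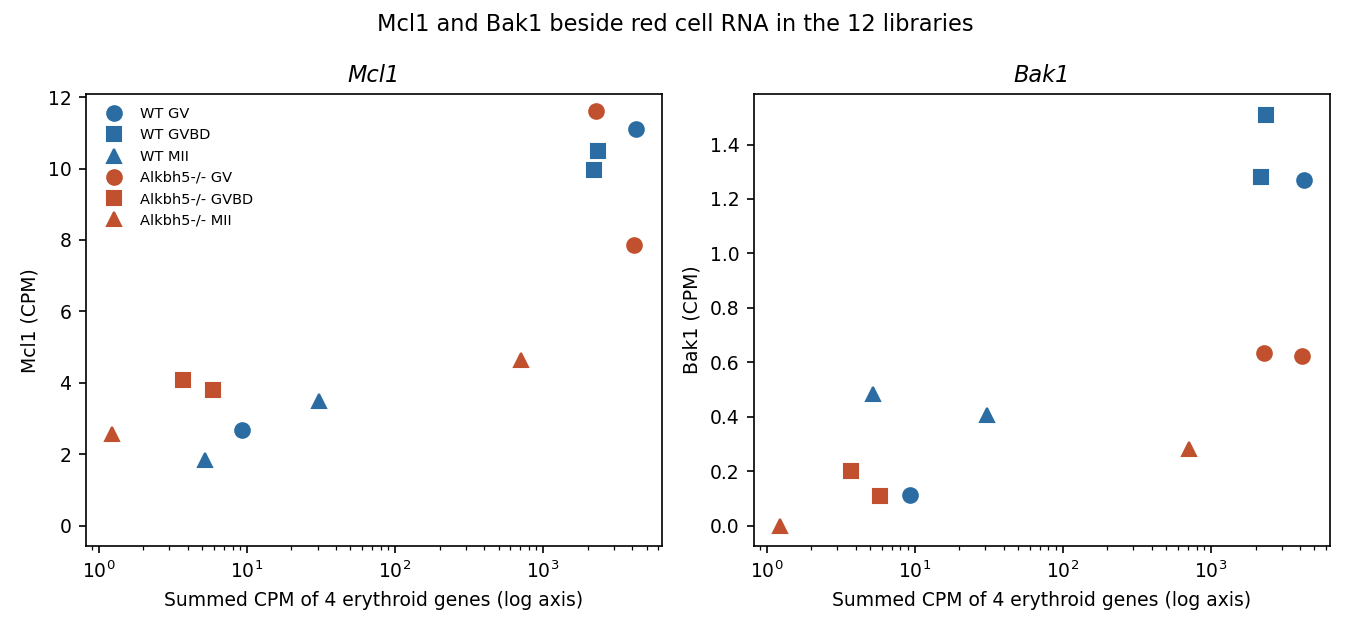
Mcl1 (left) and Bak1 (right) in CPM against the summed CPM of 4 erythroid genes (horizontal log axis) in the 12 libraries, coloured by genotype and shaped by stage. The 6 libraries at 706 erythroid CPM or more all have more Mcl1 than the other 6, with 165 to 356 counts against 68 to 138; Bak1 overlaps, with 10 to 51 counts against 0 to 18.

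Bcl2l1 had 552 and 546 spike-in scaled counts in WT GV libraries and 899 and 869 in Alkbh5-/- GV libraries. At GVBD it had 622 and 510 in WT and 1832 and 739 in Alkbh5-/-. At MII it had 326 and 151 in WT and 389 and 233 in Alkbh5-/-. The genotypes did not overlap at GV or GVBD and overlapped at MII. The Alkbh5-/- against WT log2 fold change was 0.69 ± 0.24 among GV oocytes (adjusted p = 0.225). It was 1.18 ± 0.56 among GVBD oocytes (adjusted p = 0.327) and 0.38 ± 0.92 among MII oocytes (adjusted p = 1). Over all stages it was 0.75 ± 0.31 (adjusted p = 0.205, unadjusted p = 0.0273), beside a median of 0.29 for all genes. With TMM scaling, which takes that median to 0.02, the value was 0.50 ± 0.20 (adjusted p = 0.193). Bcl2l1 was higher in mean in Alkbh5-/- oocytes at each stage, without passing the test at any of them. Without Alkbh5-/- GVBD replicate 1 the GVBD value was 0.38 ± 0.84. At MII the sign turned without WT MII replicate 2 (-0.07 ± 1.57) and without Alkbh5-/- MII replicate 1 (-0.03 ± 1.02).

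Between GV and MII, Bcl2l1 changed by -1.20 ± 0.55 in WT (adjusted p = 0.0798) and -1.51 ± 0.70 in Alkbh5-/- (adjusted p = 0.215), close to the median gene of each genotype. Bcl2, the founding survival gene of the family, was low throughout, with 4 to 114 counts per library. Its spike-in scaled level was 16.6 and 73.3 at WT GV, 153 and 38.1 at WT GVBD, and 15.2 and 5.30 at WT MII. The Alkbh5-/- libraries had 43.7 and 20.4 at GV, 46.0 and 25.3 in the GVBD pair, and 8.01 and 2.87 at MII. Replicates of Bcl2 differed by up to several fold, and neither its MII against GV change (-2.14 ± 1.11 in WT, -2.54 ± 1.41 in Alkbh5-/-) nor its genotype difference over all stages (-0.94 ± 0.59) passed the test (adjusted p = 0.135, 0.293 and 0.413). Some Bcl2 counts may belong to D630008O14Rik, which shares 558 exonic bases on the opposite strand, since the strand setting of the counting was not given in the sources used here.

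Of the 8 members tested between GV and MII in WT oocytes, Bax had the largest fall. The WT libraries had 521 and 261 spike-in scaled counts at GV, 170 and 115 in the GVBD pair, and 45.5 and 25.1 at MII. The Alkbh5-/- libraries had 306 and 305 at GV, 293 and 267 in the GVBD pair, and 65.1 and 15.0 at MII. The 3 WT stages did not overlap, with GVBD between the other two, while in Alkbh5-/- the GVBD pair lay just below the GV pair and the MII pair far below both. The fall from GV to MII in WT was 11.1-fold (log2 fold change -3.48 ± 0.65, adjusted p = 1.28e-06), which is 2.41 lower than the median gene. In Alkbh5-/- the value was -2.93 ± 0.95, with an adjusted p of 0.0974, and the interaction was 0.54 ± 1.07 (adjusted p = 1). The 2 Alkbh5-/- MII libraries disagreed in level, and with either of them left out the Bax fall in Alkbh5-/- passed the test, at -2.23 ± 0.59 without replicate 2 (adjusted p = 0.0194) and -4.33 ± 0.69 without replicate 1 (adjusted p = 1.86e-05). Without WT MII replicate 2 the WT value was -3.10 ± 0.65 (adjusted p = 0.0527).

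At GVBD the Bax libraries of the 2 genotypes did not overlap, with Alkbh5-/- higher by 0.97 ± 0.58 on the log2 scale (adjusted p = 0.466). Both WT libraries there were high in erythroid counts and both Alkbh5-/- libraries low, so genotype and blood RNA cannot be told apart in this difference. Bax was spread over both sets of erythroid counts, at 21 to 439 counts in the low set and 65 to 239 in the high set. Among 3 WT libraries all low in erythroid counts, without WT GV replicate 2, its GV to MII change was -3.89 ± 0.99 (adjusted p = 0.00167). Bax shares 192 exonic bases with Gm45808 on the same strand, so part of its counts is uncertain.

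The ratio of Bax to Bcl2l1 per kilobase does not depend on library scaling, and was examined after the values were seen. In WT it was 2.75 and 1.39 at GV, 0.796 and 0.657 in the GVBD pair, and 0.406 and 0.482 at MII. In Alkbh5-/- it was 0.990 and 1.02 at GV, 0.465 and 1.05 in the GVBD pair, and 0.486 and 0.188 at MII. Per kilobase, Bax thus stood above Bcl2l1 in both WT GV libraries, level with it in the Alkbh5-/- GV libraries and below it in all 4 MII libraries. In counts, Bax was below Bcl2l1 in every library, so the order at GV rests on the exon lengths used, 1576 and 4586 bases. Bcl2l10, grouped here with the survival members and far above both, is not part of this ratio. The genotypes did not overlap at GV, and an exact permutation test of 2 libraries against 2 cannot reach 0.05.

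Bak1, the other main pore former, had 0 to 51 counts in a library. Its spike-in scaled level was 4.75 and 50.8 at WT GV, 68.4 and 39.0 at WT GVBD, and 14.4 and 7.71 at WT MII. In Alkbh5-/- it was 32.8 and 28.1 at GV, 9.87 and 4.41 in the GVBD pair, and 10 and 0 at MII. At GVBD the genotypes did not overlap, and the log2 fold change of Alkbh5-/- against WT was -2.91 ± 1.08, which did not pass (adjusted p = 0.178, unadjusted p = 0.0138). Both WT GVBD libraries belong to the set with many erythroid counts and both Alkbh5-/- GVBD libraries to the set with few. Genotype and blood RNA therefore cannot be told apart there. The same holds for the GVBD differences of the other members, among them Mcl1 (-1.16 ± 0.58, adjusted p = 0.36), Bcl2l1, Bax and Bok. From GV to MII, Bak1 changed by -1.32 ± 1.21 in WT (adjusted p = 0.463) and -2.61 ± 1.73 in Alkbh5-/- (adjusted p = 0.375). The WT value turned to 1.20 ± 2.31 without WT GV replicate 2. Bak1 shares exonic bases with Ggnbp1 on the opposite strand.

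Bok, an effector whose activity is set mostly by protein turnover, had at most 37 counts. Its spike-in scaled level was 7.12 and 52.2 at WT GV, 10.7 and 0 at WT GVBD, and 3.99 and 0 at WT MII. In Alkbh5-/- it was 23.7 and 11.5 at GV, 26.3 and 30.8 in the GVBD pair, and 0 in both MII libraries. The GVBD groups did not overlap, at 2.45 ± 1.51 on the log2 scale (adjusted p = 0.48). That value was 7.66 ± 2.50 without WT GVBD replicate 1, which leaves the WT library at 0 counts and makes the fitted value no bound, and 1.40 ± 1.49 without replicate 2. The 0 counts at Alkbh5-/- MII allow up to 3 counts each, or 0.0846 and 0.0973 CPM, by counting error alone.

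The BH3-only member expressed most per kilobase was Bcl2l11, whose product BIM binds every main survival protein. It had 193 and 133 spike-in scaled counts at WT GV, 251 and 149 in the GVBD pair, and 305 and 198 at MII. In Alkbh5-/- it had 208 and 120 at GV, 266 and 195 in the GVBD pair, and 179 and 190 at MII. With Bcl2l10 it was the member whose WT libraries lay higher at MII than at GV without overlap. Its MII against GV change was 0.63 ± 0.59 in WT (adjusted p = 0.483) and 0.17 ± 0.78 in Alkbh5-/- (adjusted p = 0.915), which is 1.69 and 1.34 above the median gene. Under TMM scaling the WT value was 1.53 ± 0.34 (adjusted p = 0.0232). At MII the 2 genotypes did not overlap, with a log2 fold change of -0.45 ± 0.94 for Alkbh5-/- against WT (adjusted p = 1).

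Bid, which caspase 8 cuts to its active form, had 0 to 48 counts. Its WT spike-in scaled values were 7.12 and 49.4 at GV, 63.0 and 42.5 in the GVBD pair, and 38.3 and 8.67 at MII. The Alkbh5-/- values were 45.5 and 38.3 at GV, 47.7 and 18.7 in the GVBD pair, and 18 and 0 at MII. In WT the GV libraries overlapped those of GVBD and of MII, while the GVBD pair lay above the MII pair. The MII against GV value was -0.27 ± 1.08 in WT (adjusted p = 0.899) and -2.23 ± 1.66 in Alkbh5-/- (adjusted p = 0.434). Bid shares 628 exonic bases with Bcl2l13 on the opposite strand. Bbc3, the p53 and TAp63 target best known from oocyte death after DNA damage, had 13 counts in WT GV replicate 2, 4 in Alkbh5-/- GVBD replicate 2 and 0 in the other 10 libraries. At this depth 0 counts allow up to 3, or at most 0.106 CPM in the shallowest library, and the gene passed the filter on low counts in none of the 7 comparisons. Fitted without that filter, it was not called in any of the 5 comparisons where its libraries held counts.

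Taking the members as a list, 2 of the 8 tested between GV and MII in WT oocytes passed both thresholds, Bax and Mcl1, both lower. Of all 18816 genes tested 30.9% passed (30.5% in the lower direction), so the share among the members was near the background. The count was 1 (Bax) without WT GV replicate 2 and 0 without WT MII replicate 2. Called genes were 74 higher and 5747 lower on the spike-in scale and 1593 higher and 3053 lower under TMM scaling. The members' median log2 fold change was -1.26, beside -1.06 for all genes. Spike-in scaled values of 6 of the 8 did not overlap between GV and MII (4 lower and 2 higher), against 61.6% of all tested genes. In Alkbh5-/- oocytes 0 of 8 members were called, where 3.28% of 18777 genes were (1 higher and 615 lower, or 224 higher and 727 lower under TMM scaling). There 2 members (Bax and Mcl1) had an unadjusted p under 0.05, as did 4626 genes in all, and DESeq2 called 1 member (Bax). Without Alkbh5-/- MII replicate 1, 5 members were called lower (Bcl2l1, Mcl1, Bax, Bak1 and Bid), among 11013 genes called lower of 20437 tested. The members' median was -2.17 there with all 4 libraries, beside -1.17 for all genes. No member was called in the interaction of genotype and stage, where 0.0% of 20807 genes were. No member had an unadjusted p under 0.05 there, 1197 genes in all did, and DESeq2 called 154 genes and no member.

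**Figure D4:**
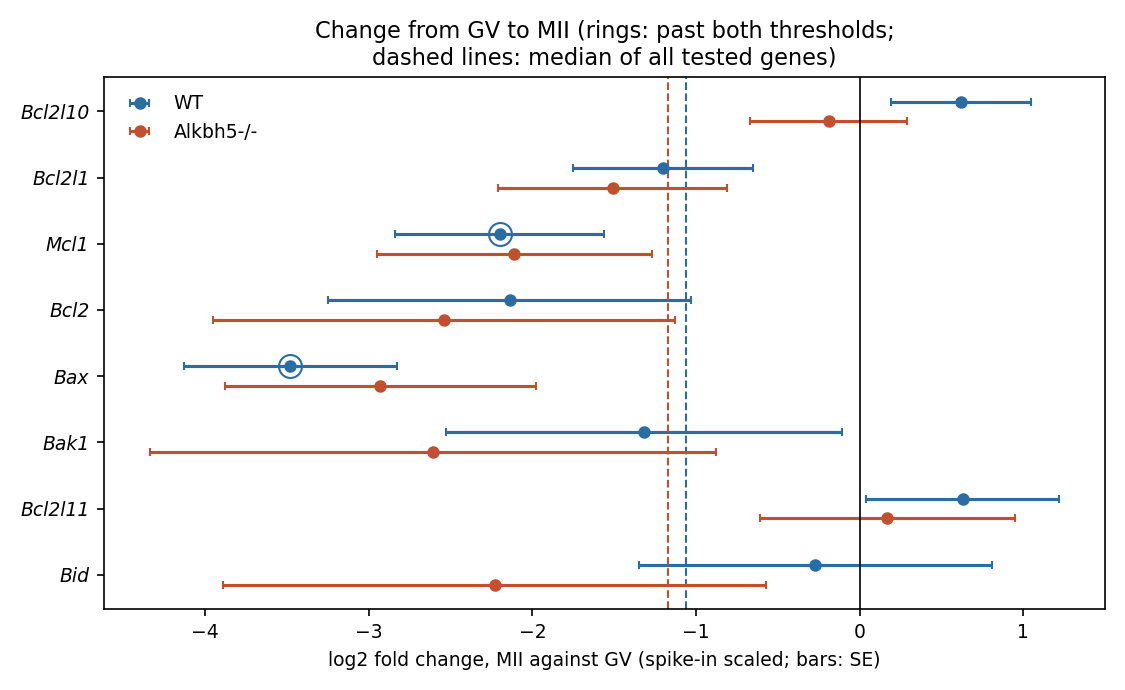
Log2 fold change of MII against GV on the spike-in scale (horizontal axis, bars are SE) of the 8 tested members in WT (blue) and Alkbh5-/- (red); rings mark genes past both thresholds and dashed lines the median of all tested genes. Bax (-3.48) and Mcl1 (-2.20) are ringed in WT, Bcl2l10 and Bcl2l11 lie to the right of both medians, and the bars of the 2 genotypes overlap for all 8.

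For genotype, 0 of 9 tested members were called at GV (background 0.0977%), 0 of 9 at GVBD (background 2.54%), 0 of 8 at MII (background 0.803%) and 0 of 9 over all stages (background 1.26%). Of all genes, 157 were called higher and 337 lower at GVBD (2 and 27 under TMM scaling) and 198 and 80 over all stages (253 and 347). DESeq2 called 0 members in these 4 comparisons as well. In simulated data the test at MII recovered 5% of log2 changes of 2, so 0 calls there cannot show that no member differs. The members with an unadjusted p under 0.05 were Bcl2l1 at GV, Bcl2l1 and Bak1 in the GVBD pair, and Bcl2l1 over all stages. Such a p was found for 3475 of 19452 genes at GV, 2901 of 19462 at GVBD and 4146 of 22004 over all stages. Spike-in scaled values did not overlap between genotypes for 2 of 9 members at GV (Bcl2l10 and Bcl2l1, both higher in Alkbh5-/-), against 51.9% of genes. They did not overlap for 5 of 9 at GVBD (Bcl2l1, Bax and Bok higher, Mcl1 and Bak1 lower), against 48.2%, and for 1 of 8 at MII (Bcl2l11 lower), against 32.4%. The Bcl2l10 difference was 0.35 ± 0.16 at GV (adjusted p = 0.312), beside a median of 0.36 for all genes there, and -0.46 ± 0.61 at MII (adjusted p = 1). The Mcl1 difference was 0.78 ± 0.65 at GV and 0.11 ± 0.48 among the 3 GV libraries high in erythroid counts, without WT GV replicate 1. Without WT GV replicate 2 it was 2.06 ± 0.57 (adjusted p = 0.0817). At MII it was 0.87 ± 1.02, 1.45 ± 0.94 without Alkbh5-/- MII replicate 2, and -0.09 ± 0.96 among the 3 MII libraries low in them, without Alkbh5-/- MII replicate 1. None of these passed the test. Over all stages the members' values ran from -1.27 ± 0.92 (Bak1) to the 0.75 of Bcl2l1, and Bcl2l10 stood at 0.00 ± 0.24. Bax (0.26 ± 0.40) and Mcl1 (0.18 ± 0.47) turned to -0.04 ± 0.30 and -0.16 ± 0.41 under TMM scaling.

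**Figure D5:**
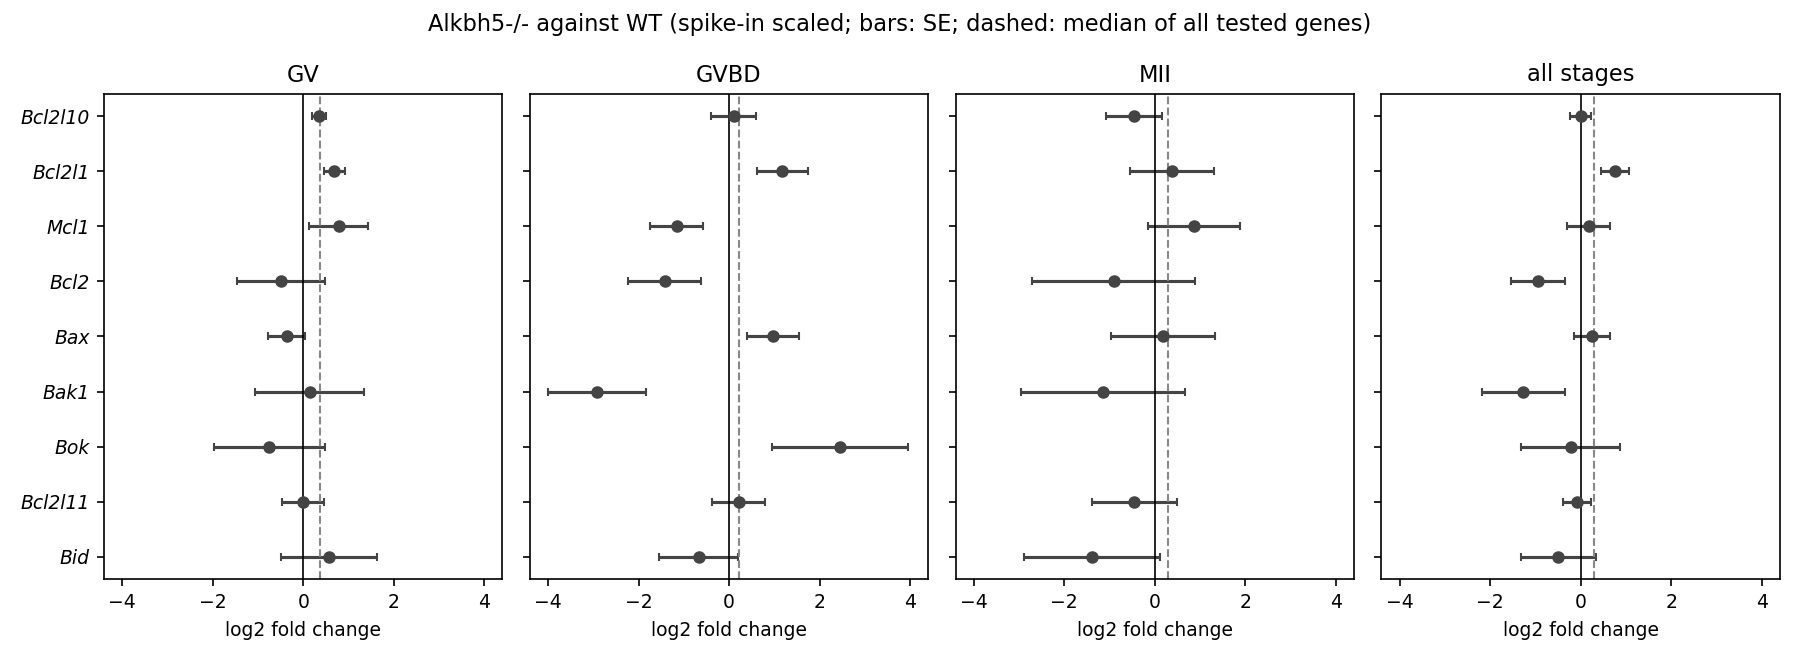
Log2 fold change of Alkbh5-/- against WT on the spike-in scale (horizontal axis, bars are SE) of the tested members at GV, GVBD, MII and over all stages; dashed lines are the median of all tested genes, and Bok has no point at MII because it did not pass the filter. None passes the test; Bcl2l1 lies at 0.69, 1.18, 0.38 and 0.75.

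In the list of 17 other BCL2 family and BH3-type genes, 5 of 13 tested fell from GV to MII in WT and 0 rose, with a median of -1.39 over the list beside -1.06 for all genes. Over the 4 lists, 12 of 35 tested genes fell and 0 rose in this comparison, near the background of 30.5% of all genes called lower. The 5 from the list of 17 were the BH3-only genes Hrk (-3.71 ± 1.36), Bad (-2.31 ± 0.90) and Bik (-1.39 ± 0.54), Bcl2l15 (-2.18 ± 0.60) and Bnip1 (-2.84 ± 0.51), whose protein acts mainly in membrane fusion. Bnip1 was the 1 of 14 tested that fell in Alkbh5-/- (-3.61 ± 0.70, adjusted p = 0.0366), where 3.28% of all genes were called. At GVBD, 2 of 15 tested passed, beside 2.54% of all genes, namely Bcl2a1b and Bcl2a1d, survival genes of blood cells. Bcl2a1b had 991 and 847 counts in WT GVBD, 31 and 83 in Alkbh5-/- GVBD and 6 to 160 in the other 8 libraries. Its log2 difference was -3.86 ± 0.65 (adjusted p = 0.00173) and that of Bcl2a1d -3.80 ± 0.68 (adjusted p = 0.00309). They are near-identical copies, so reads between them are uncertain, and genotype and blood RNA cannot be told apart at GVBD, as given above. Outside GVBD, among libraries with many erythroid counts, Bcl2a1b had 16 counts in WT GV replicate 2 and 77 and 51 in Alkbh5-/- GV. It had 6 in Alkbh5-/- MII replicate 1. The part of blood cells in its counts was not tested.

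Downstream of the pores, 3 of 7 tested genes of the caspase and apoptosome list fell in WT from GV to MII and 0 rose, with the same background of 30.5%. Cycs, which encodes the cytochrome c that leaves the mitochondrion, went from 132453 and 142528 spike-in scaled counts to 17759 and 13287 (-3.15 ± 0.45, adjusted p = 8.06e-11). In Alkbh5-/- it went from 156161 and 140282 to 27374 and 11467 (-2.93 ± 0.54, adjusted p = 0.0347), the 1 of 8 genes of the list that passed there, beside 3.28% of all genes. Casp6 (-1.82 ± 0.74, adjusted p = 0.0459) and Casp8 (-1.50 ± 0.48) were the others in WT. In the list of mitochondrial release and inhibitor genes, 4 of 11 fell in WT, namely Endog (-2.63 ± 0.80), Vdac2 (-2.48 ± 0.47), Diablo (-1.59 ± 0.53) and Vdac3 (-1.52 ± 0.46), beside 30.5% of all genes, and 0 of 11 were called in Alkbh5-/-, beside 3.28% of all genes. Vdac2 and Vdac3 encode outer membrane channels, Endog a nuclease and Diablo an antagonist of caspase inhibitors. None of the 4 upstream factors Trp53, Trp63, Trp73 and Foxo3 was called in any comparison. An unadjusted p under 0.05 was found for 1 of them at GV, beside 3475 of 19452 genes, and for 1 over all stages, beside 4146 of 22004. Over all stages, 0 of the 38 tested genes of the 4 lists were called between genotypes, beside 1.26% of all genes. An unadjusted p under 0.05 was found for 8 of the 38, beside 4146 of 22004 genes.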

How the data were processed

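RNA was measured in the 12 oocyte libraries. The deposited values are raw counts per gene, 56691 genes and 92 ERCC sequences. The submitters' processing notes name cutadapt 1.9, HISAT2 2.0.4, StringTie 1.3.4d, DESeq2 and edgeR; per the study's methods, the authors aligned reads to GRCm38 with ERCC sequences and kept unique alignments, which lowers counts of near-identical copies. The annotation release and strand setting are not given in the sources used here. The labels' extraction protocol describes another, bulk preparation, and the number of oocytes per pool is given in 2 ways. PCR reads without molecular identifiers are not independent molecules, so limits from 0 counts cover counting error only.

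Symbols came from a table of Ensembl identifiers, matching 91.9% of genes, and places and exon lengths from GENCODE M21. The members and lists were chosen with earlier results of these data known. All 10 members are named, Alkbh5, every gene of the 4 lists called in a comparison, and the 5 genes most like Bcl2l10 (mean count of at least 50, log2 of the TMM-scaled count + 0.5).

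Each of 7 comparisons was fitted to the counts of its own groups by the quasi-likelihood F test of edgeR 4.0.16 in R 4.3.3 (functions glmQLFit and glmQLFTest), library sizes being set by ERCC totals, genes kept by filterByExpr, and stage as a covariate over all stages. A gene was called at a two-sided Benjamini-Hochberg adjusted p under 0.05 over all tested genes and an absolute log2 fold change of at least 1; "rose" and "fell" are used of called genes. SE came from the fold change and the F statistic. The fit was tested on simulated data, with log2 changes of 2 or 4 given to genes above the median level. Changes of 2 were recovered for 5% of genes in Alkbh5-/- against WT at MII and 62% in MII against GV in WT. Over all stages the genotype test recovered 82%. Changes of 4 were recovered for 78%, 100% and 99% in that order. Alternatives were TMM and median-of-ratios scaling, no filter, no fold minimum, DESeq2 1.42.0, all 12 libraries in a single model, a replicate block and each library left out; erythroid counts as a covariate were added after seeing the data.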

Additional observations from a re-analysis of the deposited data

How the results depend on the processing

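Leaving a library out leaves a lone one, assumed to vary like the others. Of 90 recomputed counts of called members 81 stayed within 1.5 times their value, and of 418 recomputed log2 fold changes 374 kept direction and side of the threshold, 15 came to pass it, 7 ceased to pass it and 22 changed sign; the causes were not tested. In 5 comparisons (the 4 between genotypes and the interaction) 0 members were called under every alternative. These make up most of the 81, and all 9 counts that moved were in the GV to MII comparisons. A count going from 2 to 3 was taken as staying, even where the members called differed.

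From GV to MII in WT, 2 members were called, 1 with all 12 libraries in a single model (Bax; Mcl1 -2.20, adjusted p = 0.0536), and 0 to 3 with a library left out, 0 of them without WT MII replicate 2 and 1 without WT GV replicate 2. TMM and median-of-ratios scaling called Bcl2l10 (1.57 and 1.62) and Bcl2l11 (1.53 and 1.59) higher and not Mcl1 (-1.12 and -1.06), and turned Bid to 0.56 and 0.62. With a library left out Bid ran from -1.68 to 1.70 and Bak1 from -2.20 to 1.20, both highest without WT GV replicate 2. Bcl2l1 passed without WT MII replicate 1 (-1.86), where Mcl1 did not (-2.06).

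In Alkbh5-/-, 0 members were called, but 1 (Bax) with no filter, with DESeq2, with the replicate block and with all 12 libraries in a single model, and 0 to 5 with a library left out, 5 of them (Bcl2l1, Mcl1, Bax, Bak1 and Bid) without Alkbh5-/- MII replicate 1. Bcl2l10 turned to 0.91 and 0.93 under TMM and median-of-ratios scaling and ran from -0.61 to 0.13 with a library left out, and Bcl2l11 from -0.17 to 0.62. Between genotypes over all stages, Mcl1 turned to -0.16 and -0.18 and Bax to -0.04 and -0.08 under the 2 scalings. With a library left out they ran from -0.16 to 0.44 and from -0.02 to 0.49, at MII Mcl1 ran from -0.09 to 1.45 and Bcl2l1 from -0.07 to 1.04, and the Bax interaction from -0.86 to 1.25. With erythroid counts as a covariate, chosen after seeing the data, 0 members were called over all stages and in the interaction, and Mcl1 over all stages was 0.45.

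On TMM-scaled values, the correlation of same-numbered deviations between genotypes was -0.22 (GV), 0.14 (GVBD) and -0.18 (MII). Between GV and MII it was 0.026 in WT and 0.052 in Alkbh5-/-. TMM scaling removes a shift of a whole library, so these values cannot show whether replicate numbers pair the samples on the spike-in scale. The replicate block called 1 member (Bax, -3.26) from GV to MII in Alkbh5-/- and changed no other count of members. Over all genes it took the calls from 616 to 2462 in that comparison and from 278 to 673 between genotypes over all stages.

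Counts over all genes moved more. From 19 at GV they were 666 with no filter or DESeq2 and 0 with the block or the single model. From 494 at GVBD they were 29 (TMM), 37 (median-of-ratios), 953 (no filter), 901 (DESeq2), 214 (block) and 12 (single model). From 141 at MII they were 43, 2, 150, 346, 4 and 219 in that order. From 278 over all stages they were 600, 608, 1181, 1356 and 673, and 263 with the covariate. From 5821 in WT from GV to MII the single model gave 3839, and from 616 in Alkbh5-/- the 6 gave 951, 930, 2659, 3068, 2462 and 2933. From 0 in the interaction they gave 71, 110, 346, 154, 0 and 2, and the covariate 288. Leaving out a library gave 0 to 514 at GV, 5 to 813 at GVBD, 11 to 542 at MII, 63 to 918 over all stages, 2853 to 5347 in WT, 39 to 11075 in Alkbh5-/- and 0 to 285 in the interaction.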
